A study of Mus musculus with 7 samples.

Results

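The 10 genes described here cover the breakdown of insulin and the main steps by which a cell answers it: Ide (insulin-degrading enzyme), Insr (the insulin receptor), Irs1 and Irs2 (receptor substrates), Pik3r1 and Pik3ca (a regulatory and a catalytic subunit of phosphoinositide 3-kinase, PI3K), Pdpk1 and Akt2 (kinases downstream of PI3K), Slc2a4 (the glucose transporter GLUT4) and Ptpn1 (a tyrosine phosphatase of the receptor). They were found by symbol, by way of the GENCODE M21 annotation, among 55487 gene rows, and 10 of 10 passed the filter on low counts that left 18779 genes for testing. The list was chosen by measured values in part, since Ide was picked for its difference between CNTR and PAMH F3 in these same counts. Differences between the groups in the members are therefore a description. Members passing a p threshold are counted below beside the share of all genes, and nothing is read from those counts.

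Libraries were made from ovaries of C57BL/6J females at postnatal day 60 in diestrus, with 3 CNTR and 4 PAMH F3 libraries. CNTR females descended from dams injected with PBS. PAMH F3 females were generation 3 of a lineage whose founding dams were given AMH late in gestation, from E16.5 to E18.5, at 0.12 mg/kg daily. The injections are subcutaneous in the sample labels and intraperitoneal in the study's methods. By those methods the controls were first-generation animals, so treatment of the lineage and generation cannot be told apart. Each library was taken to stand for 1 mouse. The error given is the SD over libraries for levels and ratios, and a standard error from the fit for log2 fold changes. The tissue was whole ovary, in which fewer cells of a type and less RNA per cell cannot be told apart.

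Insulin binds its receptor tyrosine kinase, which phosphorylates the IRS proteins. These recruit PI3K, whose lipid product brings PDK1 and AKT to the membrane, and AKT in turn acts on glucose transport, glycogen and protein synthesis and the FOXO transcription factors. Insulin-degrading enzyme is a zinc metalloprotease that cleaves insulin and other small peptides, and PTP1B, the product of Ptpn1, dephosphorylates the activated receptor. In the ovary, granulosa, theca and stromal cells carry insulin receptors, and insulin acts there together with gonadotropins on steroid synthesis.

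Promoter sequences were taken for the members from RefSeq (GRCm38.p6), as windows of 300 bases from 250 before to 50 after a transcript start, and 8 of 10 members had 1 or more, with 13 windows in all. Shown are Ide, which had the largest difference between the groups, the pair of substrates Irs1 and Irs2, and Fgfbp3, a neighbor of Ide whose level followed it. Capitals mark matches, on either strand, to GTAAACA (a FOXO site), TGTTTTG (the core of an insulin response sequence), GGGCGG (a GC box), CACGTG (an E box), TGACGTCA (a CRE), CCAAT and TATAAA.
Ide (chr19:37334495-37334794, minus strand): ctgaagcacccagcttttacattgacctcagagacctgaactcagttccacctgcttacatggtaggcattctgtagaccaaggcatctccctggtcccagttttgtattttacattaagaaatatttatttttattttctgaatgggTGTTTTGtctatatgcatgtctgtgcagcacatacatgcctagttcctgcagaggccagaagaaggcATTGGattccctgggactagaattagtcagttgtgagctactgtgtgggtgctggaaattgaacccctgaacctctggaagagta
Irs1 (chr1:82291390-82291689, minus strand): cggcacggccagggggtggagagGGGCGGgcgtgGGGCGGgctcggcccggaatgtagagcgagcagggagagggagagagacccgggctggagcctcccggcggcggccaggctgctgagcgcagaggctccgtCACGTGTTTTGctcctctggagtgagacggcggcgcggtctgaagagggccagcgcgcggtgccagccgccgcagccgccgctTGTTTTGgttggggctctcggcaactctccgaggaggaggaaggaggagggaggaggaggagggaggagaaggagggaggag
Irs2 (chr8:11008880-11009179, minus strand): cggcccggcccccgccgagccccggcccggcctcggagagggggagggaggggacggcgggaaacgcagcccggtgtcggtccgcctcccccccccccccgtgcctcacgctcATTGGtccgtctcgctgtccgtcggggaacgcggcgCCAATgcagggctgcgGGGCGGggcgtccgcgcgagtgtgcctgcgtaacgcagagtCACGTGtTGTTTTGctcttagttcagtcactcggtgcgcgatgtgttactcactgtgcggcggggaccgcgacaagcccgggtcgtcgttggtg
Fgfbp3 (chr19:36919550-36919849, minus strand): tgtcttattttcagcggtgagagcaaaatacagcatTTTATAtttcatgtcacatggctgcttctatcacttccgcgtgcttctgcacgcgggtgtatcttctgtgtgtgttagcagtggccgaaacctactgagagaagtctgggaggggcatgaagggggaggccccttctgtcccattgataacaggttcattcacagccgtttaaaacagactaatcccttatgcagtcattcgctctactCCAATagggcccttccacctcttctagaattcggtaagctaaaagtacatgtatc

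TGTTTTG was found in 3 of 13 member windows, those of Ide (1 match), Irs1 (2 matches) and Irs2 (1 match), against 6.28% of the 32851 windows in the RefSeq table. In Irs1 one of its matches overlapped the CACGTG match, and in Irs2 a single base lay between them. CACGTG was present in 2 of 13 member windows and in 7.15% of all windows. GGGCGG was present in 7 of 13 member windows (35.7% of all), CCAAT in 5 of 13 (37.4%), TATAAA in 1 of 13 (13.6%), and GTAAACA (3.65%) and TGACGTCA (1.79%) in 0 of 13. The Ide window held 0 CpG dinucleotides and that of Fgfbp3 held 9, where the median window held 7, while Irs1 had 28 and Irs2 41. The Ide window belongs to a RefSeq start at base 37334544 of chromosome 19, 3931 bases upstream of the start of transcript Ide-201 in GENCODE M21, so it is 1 of several annotated starts of the gene. A match is a description of the letters and not of a site in use.

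Levels are given in CPM, counts scaled to each library's size after trimmed-mean-of-M-values (TMM) correction, and per kilobase of exon where genes are compared with each other. On the per-kilobase scale, the mean over the 7 libraries was 38.1 for Ide, 30.5 for Pik3r1 and 26.1 for Irs1, and the ranges of these 3 genes overlapped. Pik3ca (13.7), Ptpn1 (12.6), Insr (11.6) and Akt2 (10.9) formed a middle group in which each gene's range overlapped that of the next. Pdpk1 followed at 8.83, and Irs2 (3.98) and Slc2a4 (2.88) were the lowest, with overlapping ranges. The ranges did not overlap between Irs1 (22.8 at its lowest) and Pik3ca (15.2 at its highest), between Akt2 and Pdpk1, or between Pdpk1 and Irs2. Raw counts behind these levels ran from 162 for Slc2a4 in PAMH F3 replicate 4 to 12351 for Ide in PAMH F3 replicate 1.

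The order at the top depended on the group. In CNTR, Pik3r1 was at 30.9 ± 0.57 CPM per kilobase (SD, n = 3) and Ide at 27.6 ± 9.30. In PAMH F3, Ide was at 46.1 ± 3.91 (SD, n = 4) and Pik3r1 at 30.1 ± 3.43, and every PAMH F3 library had more Ide than Pik3r1 per kilobase. Ide was also above Pik3r1 in CNTR replicate 1, and below it in the other CNTR libraries.

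**Figure D1:**
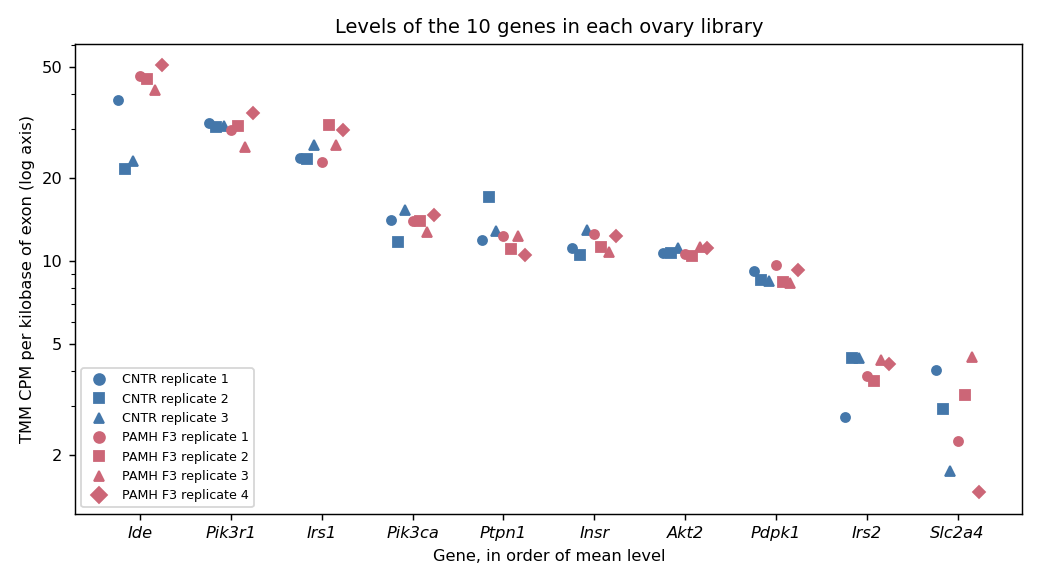
Levels of the 10 genes in each of the 7 libraries, as TMM CPM per kilobase of exon on a log axis, with genes ordered by their mean and 1 point per library (CNTR in blue, PAMH F3 in red). Ide, with a range of 21.4 to 50.9, is the gene in which all red points lie above all blue ones, while Akt2 spans 10.4 to 11.3 and Slc2a4 spans 1.46 to 4.49.

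Ide (ENSMUSG00000056999, chromosome 19, 37268743 to 37337852 of GRCm38, minus strand) was the member with the largest difference. CNTR replicates 1, 2 and 3 had 287, 161 and 173 CPM, and PAMH F3 replicates 1 to 4 had 350.0, 341, 311 and 382 CPM. The groups did not overlap, but CNTR replicate 1 lay nearer to the PAMH F3 libraries than to the other controls. The mean was 207 ± 69.8 CPM in CNTR (SD, n = 3) and 346 ± 29.3 CPM in PAMH F3 (SD, n = 4), a ratio of 1.67. Relative to the PAMH F3 mean, the CNTR libraries stood at 83.1%, 46.5% and 49.97% in the order of their numbers. In edgeR's fit with 2 surrogate variables (covariates that sva estimates from variation the groups do not account for), the log2 fold change (log2FC, PAMH F3 minus CNTR) was 0.61 with a standard error (SE) of 0.08, and it was 0.74 (SE 0.19) without them. The second surrogate variable was at -0.62 in CNTR replicate 1 and at 0.53 and 0.50 in CNTR replicates 2 and 3. In PAMH F3 it lay between -0.27 and -0.02. It thus followed the split of the controls in Ide, and the SE of 0.08 leaves out the spread it took up. Without CNTR replicate 1 the log2FC was 1.04 and the ratio of means 2.07. The sum of the luteal markers Ptgfr, Akr1c18 and Hsd17b7, none of them at 0, was 1127, 1081 and 2087 CPM in CNTR and 1161, 499.8, 1019 and 765 CPM in PAMH F3, and its r with Ide was -0.63 over the 7 libraries. Of these markers, Ptgfr had a log2FC of -0.95 (SE 0.28), Hsd17b7 one of -0.66 (SE 0.44) and Akr1c18 one of -0.07 (SE 0.55). The endothelial markers Pecam1, Cdh5 and Tek were at -0.44 (SE 0.11), -0.21 (SE 0.12) and -0.14 (SE 0.12). The sum of these endothelial markers had an r of -0.22 with Ide. The part of luteal or endothelial cells in the Ide values was not tested. A processed pseudogene, Rpl10-ps6, lies inside Ide on the same strand and had at most 5 counts in a library.

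Genes around Ide were examined on the scale of 500 kb to each side, where 24 genes are annotated and 10 were tested, Ide included. The protein-coding genes nearest to it that were tested, March5 (a ubiquitin ligase of mitochondria) and Kif11 (a motor of the mitotic spindle), had log2FC values of -0.06 (SE 0.08) and 0.04 (SE 0.14), and their groups overlapped. Cpeb3, which also lies between Ide and Fgfbp3, had a log2FC of 0.00 with an SE of 0.11. For March5, Kif11 and Cpeb3 the difference was smaller than its SE.

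Fgfbp3, which encodes a secreted protein that binds fibroblast growth factors, lies on the same strand as Ide, 349128 bases away. It had 10.5, 5.94 and 5.32 CPM in CNTR replicates 1 to 3, and 10.6, 13.6, 14.0 and 13.7 CPM in PAMH F3 replicates 1 to 4. As in Ide, CNTR replicate 1 was far above the other controls and close to PAMH F3. The groups did not overlap, but only just, with 10.49 CPM in CNTR replicate 1 and 10.63 CPM in PAMH F3 replicate 1. Counts of Fgfbp3 ran from 172 to 501 in a library. Means were 7.25 ± 2.82 (SD, n = 3) and 13.0 ± 1.58 (SD, n = 4) CPM, with a log2FC of 0.75 (SE 0.17). This difference did not pass edgeR's quasi-likelihood test after Benjamini-Hochberg adjustment over all genes (adjusted p = 0.511) and passed DESeq2's with the same surrogate variables (adjusted p = 0.0209). The ratio of Ide to Fgfbp3 in CPM was 27.4, 27.0 and 32.5 in CNTR and 32.9, 25.0, 22.2 and 27.8 in PAMH F3. It thus varied 1.48-fold between the lowest and the highest library, with overlapping groups, where Ide itself varied 2.38-fold and Fgfbp3 2.63-fold. Pearson's r between Ide and Fgfbp3 in log2 CPM was 0.94 and Spearman's rho 0.71 over these 7 libraries, the rank of Fgfbp3 by r being 10 among 18778 genes. It is background knowledge that a stretch of chromosome 19 with Ide and Fgfbp3 differs in copy number among C57BL/6J mice. DNA copy number was not measured in the files used here, and its part in the Ide values was not tested.

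**Figure D2:**
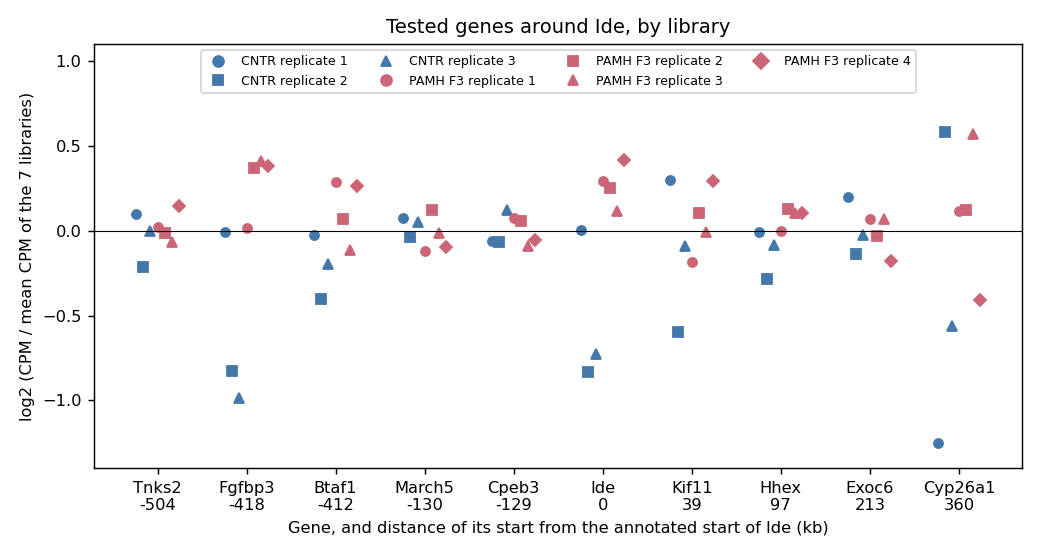
Tested genes around Ide, ordered by the distance of their start from that of Ide in kb, with each library's level as the log2 of its CPM over the mean CPM of the 7 libraries (CNTR in blue, PAMH F3 in red). In Ide and in Fgfbp3, CNTR replicates 2 and 3 lie far below the other 5 libraries, whereas March5 and Cpeb3, which lie between them, stay close to 0 in all libraries.

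Btaf1, which lies beside Fgfbp3 on the side of Ide and encodes a subunit of a complex that removes TATA-binding protein from DNA, had a log2FC of 0.24 (SE 0.07; adjusted p = 0.529, edgeR) and followed Ide (r = 0.89, rho = 0.93), and CNTR replicate 1, at 86.5 CPM, lay within the PAMH F3 range of 81.5 to 108 CPM. On the far side of Kif11, the homeobox gene Hhex had a log2FC of 0.17 (SE 0.14, edgeR's adjusted p = 0.813), with an r of 0.88 and a rho of 0.82 with Ide. Its groups did not overlap, but only just, at up to 5.15 CPM in CNTR and from 5.19 CPM in PAMH F3, on 142 to 200 counts. Cyp26a1, which encodes a retinoic acid hydroxylase, had a log2FC of 0.86 (SE 0.16; adjusted p = 0.371 with edgeR and 0.000515 with DESeq2), which was 0.35 (SE 0.39) without surrogate variables. Its groups overlapped, and its r with Ide was -0.09. Over all tested genes, the 5 whose log2 CPM was most like that of Ide were Lonrf1 (r = 0.98), Blmh (0.96), Gm31749 (0.96), Catsper3 (0.95) and Pigh (0.95), on chromosomes 8, 11, 7, 13 and 12. These r values rest on 7 libraries that also share their group, and Gm31749 and Catsper3 had under 1 CPM in every library.

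Insr (ENSMUSG00000005534, chromosome 8, 3122061 to 3279617) had 153, 144 and 178 CPM in CNTR and 173, 154, 149 and 169 CPM in PAMH F3. The groups overlapped throughout, with means of 158 ± 17.9 (SD, n = 3) and 161 ± 11.5 (SD, n = 4), and the log2FC was 0.01 with an SE of 0.06. The ratio of Ide to Insr per kilobase was 3.45, 2.04 and 1.77 in CNTR and 3.71, 4.05, 3.82 and 4.13 in PAMH F3. This ratio repeated the pattern of Ide, with CNTR replicate 1 nearest to PAMH F3.

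Of the receptor substrates, Irs1 (ENSMUSG00000055980, chromosome 1, 82233101 to 82291416) had 216, 214 and 239 CPM in CNTR and 209, 283, 239.8 and 272 CPM in PAMH F3. The lowest library of all was PAMH F3 replicate 1 and the highest PAMH F3 replicate 2, so that the PAMH F3 range enclosed the CNTR range. Means were 223 ± 14.1 (SD, n = 3) and 251 ± 33.7 (SD, n = 4) CPM, with a log2FC of 0.19 (SE 0.11). Irs2 (ENSMUSG00000038894, chromosome 8, 10984681 to 11008458) had 17.3, 28.2 and 28.3 CPM in CNTR and 24.4, 23.3, 27.7 and 26.8 CPM in PAMH F3. Here CNTR replicate 1 was the lowest of the 7 libraries and the other controls were the highest. The means of Irs2 were 24.6 ± 6.31 (SD, n = 3) and 25.5 ± 2.04 (SD, n = 4) CPM. Its log2FC was 0.24 (SE 0.09) with the surrogate variables, 0.06 (SE 0.17) without them, and -0.14 without CNTR replicate 1. The second surrogate variable set CNTR replicate 1 apart from the other controls, as the level of Irs2 did. Irs1 exceeded Irs2 in every library, by 5.24 to 8.63 times per kilobase, and this ratio was 6.57 ± 1.80 in CNTR (SD, n = 3) and 6.83 ± 1.16 in PAMH F3 (SD, n = 4).

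Pik3r1 (ENSMUSG00000041417, chromosome 13, 101680563 to 101768217) had 318, 307 and 309 CPM in CNTR and 300.4, 309, 261 and 345 CPM in PAMH F3. The PAMH F3 libraries spread to both sides of the controls, with means of 311 ± 5.74 (SD, n = 3) in CNTR and 304 ± 34.6 (SD, n = 4) in PAMH F3 and a log2FC of -0.06 (SE 0.09). Pik3ca (ENSMUSG00000027665, chromosome 3, 32397671 to 32468486) had 127, 106 and 138 CPM in CNTR and 127, 127, 116 and 133 CPM in PAMH F3. All PAMH F3 libraries fell inside the CNTR range, and the log2FC was -0.01 (SE 0.06). The regulatory subunit exceeded the catalytic one in each library, by 2.01 to 2.60 times per kilobase, and this ratio was 2.29 ± 0.30 in CNTR (SD, n = 3) and 2.175 ± 0.13 in PAMH F3 (SD, n = 4).

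Pdpk1 (ENSMUSG00000024122, chromosome 17, 24073680 to 24150924), which encodes the kinase that activates AKT, had 101, 93.0 and 92.5 CPM in CNTR and 106, 91.9, 91.1 and 101 CPM in PAMH F3. Replicate 1 was the highest in both groups, which overlapped, and the log2FC was -0.01 (SE 0.07). Akt2 (ENSMUSG00000004056, chromosome 7, 27591552 to 27640826) encodes the AKT isoform best known for its role in insulin-stimulated glucose uptake. It had 76.2, 76.4 and 79.7 CPM in CNTR and 75.8, 74.4, 80.4 and 79.3 CPM in PAMH F3. The SD over the 7 libraries was 2.97% of the mean, the smallest of the 10 genes, and the log2FC was 0.01 (SE 0.06).

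Slc2a4 (ENSMUSG00000018566, chromosome 11, 69942539 to 69948188) varied most of the 10 genes, with an SD of 39.6% of the mean over the 7 libraries. CNTR replicates 1 to 3 had 14.0, 10.1 and 6.07 CPM, and PAMH F3 replicates 1 to 4 had 7.76, 11.4, 15.6 and 5.08 CPM. Both groups held high and low libraries, the means were 10.1 ± 3.97 (SD, n = 3) and 9.96 ± 4.57 (SD, n = 4) CPM, and the log2FC was -0.10 with an SE of 0.19.

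GLUT4 is the transporter typical of fat and muscle, and adipocyte and oviduct markers were present in the libraries beside it. The summed level of 6 adipocyte markers (Adipoq, Lep, Retn, Plin1, Cidec and Cfd, none at 0 in any library) was 775, 390.4 and 235 CPM in CNTR and 211, 447, 552 and 98.9 CPM in PAMH F3. Slc2a4 followed this sum across the 7 libraries (r = 0.94, rho = 0.93), and it followed the sum of the oviduct markers Ovgp1, Foxj1 and Pax8 as closely (r = 0.97, rho = 0.96), which ran from 2929 to 5213 CPM in CNTR and from 2502 to 6320 CPM in PAMH F3. The skeletal muscle markers Acta1, Ckm and Myh4 summed to at most 1.59 CPM. The part of tissue attached to the ovary in the Slc2a4 values was not tested.

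**Figure D3:**
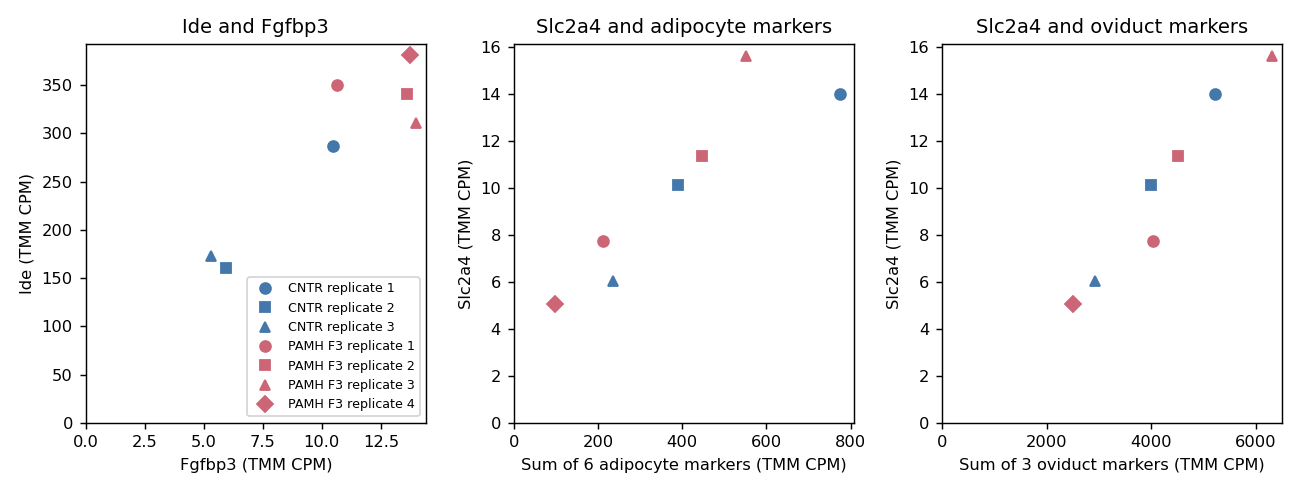
Levels of Ide against Fgfbp3, and of Slc2a4 against the summed adipocyte and oviduct markers, in TMM CPM with 1 point per library (CNTR in blue, PAMH F3 in red). Ide and Fgfbp3 are both low in CNTR replicates 2 and 3, and Slc2a4 climbs with either marker sum, from 5.08 CPM in PAMH F3 replicate 4 to 15.6 CPM in PAMH F3 replicate 3, without separating the groups.

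Ptpn1 (ENSMUSG00000027540, chromosome 2, 167932057 to 167979385) had 66.0, 94.1 and 71.1 CPM in CNTR and 68.2, 61.3, 68.1 and 58.4 CPM in PAMH F3. CNTR replicate 2 stood alone above the other 6 libraries, and CNTR replicate 1 lay inside the PAMH F3 range. The means were 77.1 ± 15.0 (SD, n = 3) and 64.0 ± 4.94 (SD, n = 4) CPM, a ratio of 0.83, with a log2FC of -0.17 (SE 0.09), which was -0.09 without CNTR replicate 2 and -0.35 without CNTR replicate 1. CNTR replicate 2 also had the steepest dependence of level on GC content, at 0.32 log2 units per 10 percentage points where the other libraries lay between -0.13 and 0.05. The transcripts of Ptpn1 had 55.1% GC. Pearson's r of Ptpn1 with this slope was 0.94 over the 7 libraries, with a rho of 0.68. For members of like GC content r was 0.42 (Irs2, 56.6%), 0.28 (Slc2a4, 56.2%) and -0.02 (Akt2, 54.8%). Members of lower GC content had negative r, at -0.85 (Pik3ca, 40.8%), -0.33 (Pik3r1, 46.3%), -0.62 (Insr, 47.3%), -0.51 (Pdpk1, 48.9%) and -0.40 (Irs1, 50.3%). For Ide, at 44.0% GC, r was -0.74, and without CNTR replicate 2 its log2FC was 0.56. The part of GC content in the values of any of these genes was not tested.

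Put side by side, 9 of 10 genes had overlapping groups. A further 1, Ide, lay above CNTR in PAMH F3 and 0 lay below it, where 1.85% and 2.4% of the 18779 tested genes did so. The log2FC was positive in 5 genes and negative in 5, with a median of 0.00, and a median of 0.00 over all genes tested. It was within 0.1 of 0 in 6 of 10 members, against 51.1% of all genes. After adjustment, 0 of 10 members and 0% of all genes passed edgeR's test at 0.05, and the smallest adjusted p over all genes was 0.111. At an unadjusted p under 0.05, 2 of 10 members, Ide and Irs2, were higher in PAMH F3, against 3.75% of all genes in that direction, and 0 were lower, against 3.89%. Without surrogate variables 1 of 10 was left, Ide, against 3.95% in either direction. DESeq2 with the same surrogate variables called 1 of 10 members, Ide, against 0.58% of the genes it tested, and 0 of 10 without surrogate variables. Ide was listed for its difference in these same data, so its passing a threshold was set by that choice and is not a test. Since the members were listed with these results known, nothing is read from the numbers passing or from their shares.

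**Figure D4:**
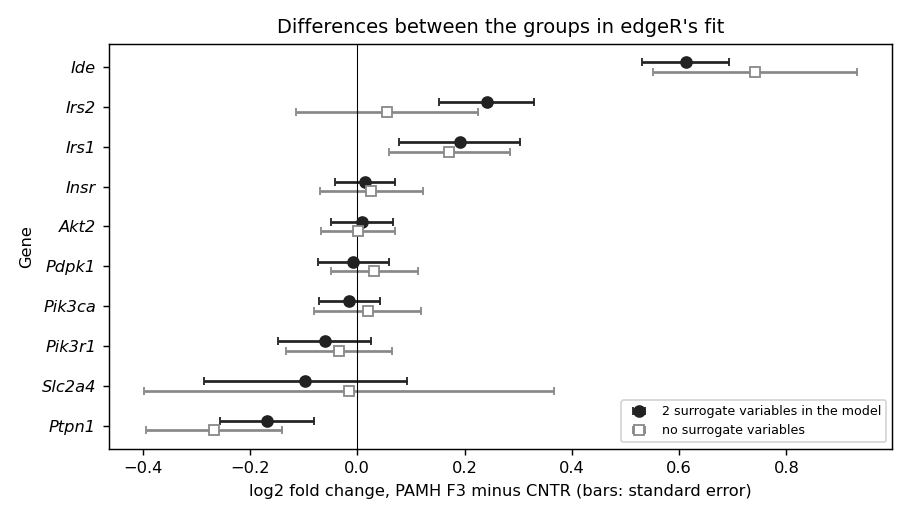
log2 fold changes of the 10 genes, PAMH F3 minus CNTR, with bars for the standard error of edgeR's fit, with 2 surrogate variables (filled circles) and without (open squares). Ide is at 0.61 and 0.74, Irs2 moves from 0.24 to 0.06 between the fits, and 6 genes lie within 0.1 of 0.

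Among themselves, the genes did not move as a block. Over all pairs of members, the strongest relations in log2 CPM over the 7 libraries were Insr with Pik3ca (r = 0.84), Ide with Ptpn1 (r = -0.83) and Insr with Slc2a4 (r = -0.81). Within groups, after subtracting each group's mean, these were 0.84, -0.73 and -0.81, and the strongest relations were then Ide with Irs2 (-0.91, against -0.34 over all libraries) and Pik3ca with Ptpn1 (-0.84, against -0.73). The value for Ide with Irs2 came mainly from CNTR replicate 1, which had the most Ide of the controls (287 CPM) and the least Irs2 (17.3 CPM). CNTR replicate 2 likewise had the most Ptpn1 and the least Pik3ca. Ide and Insr were nearly unrelated (r = 0.14), as were Irs1 and Irs2 (r = 0.19). Some members moved with a library's length dependence or with marker sums. For Insr, r was 0.89 with a library's slope of level on the log2 of exon length. With the same slope, r was 0.82 for Pik3ca, 0.73 for Pdpk1, -0.69 for Slc2a4 and -0.61 for Ptpn1. Insr, Pik3ca and Slc2a4, paired above, thus shared this relation to the libraries, and its part in their correlations was not tested. For Irs2, r was 0.76 with the summed granulosa cell markers (Fshr, Amh, Foxl2, Inha and Cyp19a1). With that granulosa sum, r was also 0.73 for Akt2 and -0.66 for Slc2a4, and Irs2 had an r of 0.72 with the summed theca markers. The range of the granulosa sum was 1606 to 2585 CPM in CNTR and 1747 to 2437 CPM in PAMH F3. These values describe 7 libraries and carry no test.

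The wider pathway was described with 12 lists of 86 genes, of which 79 were tested. With 0 genes called in either direction (smallest adjusted p 0.512), 8 had an unadjusted p under 0.05 and were higher in PAMH F3 (Igf1r, Foxo1, Tbc1d4, Tsc1, Slc2a3, Vamp2, Grb14 and Inppl1) and 3 were lower (Irs3 and Eif4ebp1 among them). This made 13.9% of the listed genes, against 7.64% of all genes. Without surrogate variables 1 of 79 remained, Foxo1, against 3.95%, and DESeq2 with the same surrogate variables called 0. The log2FC was positive in 44 genes and negative in 35, with a median of 0.01. The groups did not overlap in 3 of 79, Gab1 above and Map2k1 and Trib3 below, or 3.797% against 4.25% of all genes.

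Of the ligands, Ins1 was at 0 counts in all libraries, and Ins2 and Igf2 had at most 2 and 5 counts, so transcripts of insulin itself were not detectable or nearly so at this depth. Markers of pancreatic islets were also low, with Gcg and Pdx1 under 0.5 CPM and Iapp at 0. Igf1, the related growth factor, had 163 ± 24.9 CPM in CNTR and 176 ± 22.3 CPM in PAMH F3, with a log2FC of 0.04. Among other proteases and enzymes that act on insulin, 0 of 6 had an unadjusted p under 0.05. The levels of P4hb (protein disulfide isomerase), at 1010.3 ± 46.6 and 1025 ± 64.8 CPM, and Ctsd (the lysosomal protease cathepsin D), at 491 ± 47.5 and 439 ± 45.3 CPM, were the highest of these per kilobase, with log2FC values of 0.06 and -0.17. Nrd1, or nardilysin, a relative of Ide in the same protease family, had a log2FC of 0.08 (SE 0.06).

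Around the receptor and PI3K, the adaptors Grb2 and Sh2b1 had log2FC values of 0.06 and 0.03. The other regulatory subunits, Pik3r2 and Pik3r3, were at -0.10 and 0.03, and 0 of 4 PI3K genes had an unadjusted p under 0.05. Akt1, the isoform most widely expressed in tissues, had 227 ± 33.6 CPM in CNTR and 209 ± 15.2 CPM in PAMH F3 (log2FC -0.03), and Mapkap1, a subunit of mTORC2, was at 0.03. In the MAPK arm, Mapk3 had a log2FC of -0.01, and 0 of 9 genes passed at an unadjusted 0.05.

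Among targets of AKT, Foxo1, a transcription factor that insulin signaling keeps out of the nucleus, had 478, 414 and 646 CPM in CNTR and 585, 651, 658 and 768 CPM in PAMH F3. CNTR replicate 3 lay inside the PAMH F3 range. The log2FC was 0.40 with an SE of 0.11, and edgeR's adjusted p was 0.536. Gsk3a, which encodes a kinase that inhibits glycogen synthase, was at 0.01. Of the listed targets of FOXO1 and SREBP1, 4 were tested and had negative log2FC values, the largest in Scd1 (stearoyl-CoA desaturase), at -0.73 with an SE of 0.33 (adjusted p = 0.67). Scd1 was at 1189 CPM in CNTR replicate 1, the library with the most adipocyte markers, and between 197 and 616 CPM in the other 6 libraries. Fasn (fatty acid synthase) was at -0.18.

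Glucose transporters other than GLUT4 were the more abundant ones per kilobase. Slc2a1 (GLUT1) was at 12.2 and Slc2a3 (GLUT3) at 19.4 CPM per kilobase over all libraries, where Slc2a4 was at 2.88. Their log2FC values were -0.08 (SE 0.06) and 0.29 (SE 0.08), with an adjusted p of 0.512 for Slc2a3. In the traffic of GLUT4 vesicles, Rab10 and Stx4a had log2FC values of 0.06 and 0.05. Of the inhibitors of the receptor, Grb14, an adaptor that blocks its kinase, had 307 ± 105 CPM in CNTR and 373 ± 83.4 CPM in PAMH F3 (log2FC 0.42, SE 0.16, adjusted p = 0.629), and the phosphatase gene Ptprf was at -0.18. The lipid phosphatase gene Inppl1 was at 0.15. In all of these lists, differences between the groups did not pass the test over all genes.

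**Figure D5:**
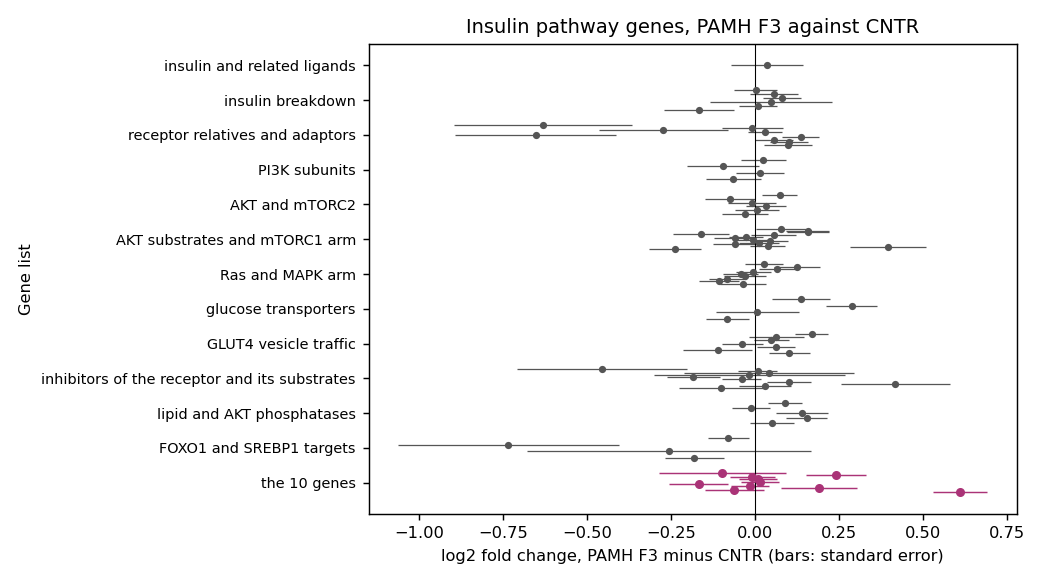
log2 fold changes, PAMH F3 minus CNTR, of the 79 tested genes of 12 pathway lists (grey) and of the 10 genes (purple), with bars for the standard error. Ide, at 0.61, lies to the right of every listed gene, the highest of which is Grb14 at 0.42, and the lowest value is that of Scd1 at -0.73.

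The libraries held 32158174 to 35485021 reads counted on genes, so depth differed little between them, and between 37.7% and 40.7% of alignments were set aside as not unique. Mitochondrial transcripts took 2.14% to 2.81% of the gene counts. Of the cells that define an ovary, the marker lists of granulosa, theca, luteal and oocyte type were present in all libraries, the lowest sum being that of oocytes at 229.6 CPM, although within the theca list Insl3 was at most 0.15 CPM and at 0 in 2 libraries. No pair of libraries agreed within sampling noise, and each was counted as 1 sample.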

How the data were processed

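The authors made stranded poly(A) libraries from ovarian RNA, sequenced single reads of 50 bases, mapped them to mm10 and counted uniquely aligned reads per Ensembl gene. The submitters' processing notes name bcl2fastq 2.17.1.14, STAR 2.5.3a and HTSeq 0.6.1p1, and the Ensembl release is not given in the sources used here. The deposited values are raw counts per gene, without normalization, and the 5 summary lines of each library (45.8% to 47.5% of its total) were left out. Reads shared by near-identical copies were dropped by this counting, so that such genes are undercounted.

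Symbols, positions and exon lengths came from GENCODE M21, to which 55394 of 55487 identifiers were matched. Groups were compared in R 4.3.3 with the quasi-likelihood F test of edgeR 4.0.16 (TMM scaling, filterByExpr with a minimum count of 10, Benjamini-Hochberg adjustment, threshold 0.05), with 2 surrogate variables from sva 3.50.0 in the model, which left 3 residual degrees of freedom. DESeq2 1.42.0, other numbers of surrogate variables, other scaling and filters, a replicate block and each library left out in turn were the alternatives. The fits were also run on simulated counts with known changes and no hidden covariate, where the sign and size of the changes were checked. That check does not bear on the number of genes called here. The standard error of a log2FC was its absolute value divided by the square root of the F statistic of its test. For correlations, 2 prior counts were added before CPM were put on the log2 scale.

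The members and the pathway and marker lists were chosen with earlier results of these data known. The text names all members, the 2 tested genes with the highest level per kilobase in each pathway list, the 5 genes most like Ide and its nearest tested neighbors. Fgfbp3, Btaf1, Cpeb3, Hhex, Cyp26a1, Nrd1, Srebf1 and the genes listed by their unadjusted p or their lack of overlap were named after their values were seen. Values of some genes under this rule are not reported here. Nrdc of the insulin breakdown list is Nrd1 in GENCODE M21. P values set a difference between the groups against the spread between these libraries that was left after the covariates of the fit.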

Additional observations from a re-analysis of the deposited data

Results flagged for a closer look

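Among 47 named genes, the highest or lowest of the 4 PAMH F3 libraries stood apart from the others in 3 genes, by Dixon's test at 95%. Chance alone gives about 1 in 20, and 3 of 47 is near that share, so nothing is read from the number. Pik3r3, a regulatory subunit of PI3K, was at 70.3 CPM in PAMH F3 replicate 4 and between 85.3 and 86.6 CPM in the others. Rab10, a GTPase of GLUT4 vesicles, was at 186 CPM in PAMH F3 replicate 4 and between 169.9 and 172 CPM in the others. Fgfbp3 was at 10.6 CPM in PAMH F3 replicate 1 and between 13.6 and 14.0 CPM in the others. In none of the 10 insulin genes did a PAMH F3 library stand apart in this way.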

How the results depend on the processing

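The number of genes called, 0 with edgeR and 2 surrogate variables (1435 at an unadjusted p under 0.05), was 101 with DESeq2 and the same surrogate variables, 6 with DESeq2 without them and 8 with no filter. With each library left out in turn it ran from 0 to 39, with 39 when CNTR replicate 1 was left out and 37 for PAMH F3 replicate 1. Without surrogate variables this range was 0 to 2, the 2 again for PAMH F3 replicate 1. The number of pathway genes called was 0, and 0 to 1 with a library left out; the 1 was Srebf1, lower without CNTR replicate 1 (edgeR, adjusted p = 0.0487). The cause was not tested. With a replicate block and no surrogate variables, 0 genes were called (436 at an unadjusted p under 0.05). The replicate numbers did not pair the libraries (correlations of 0.10, 0.10 and -0.25 for numbers 1 to 3).

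Over 24 alternatives the log2 fold change kept its sign in Ide (0.50 to 1.05), Irs1 (0.11 to 0.26) and Ptpn1 (-0.36 to -0.09), and changed it at least 2 times in the other 7 genes. Leaving out CNTR replicate 1 moved Ide to 1.04 and Irs2 to -0.14, and Irs2 was also at 0.06 without surrogate variables, where it was 0.24 with 2. Every member had at least 162 counts in each library, and the effect of depth was not tested.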
